A study of Arabidopsis thaliana with 9 samples.

Results

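Class III peroxidases of the root hair and root epidermis were followed in roots that carry mutations in MYB36. Of 9 genes known from those cells, 5 could be measured: AT1G30870, AT1G34510, AT3G49960, AT4G26010 and AT5G17820. Each was represented by 1 probe set, a group of probes summarised as 1 value, annotated to exactly 1 gene, out of 16548 genes named in that way. The other 4, AT1G05240, AT1G05250 (PRX2), AT5G22410 (RHS18) and AT5G67400 (RHS19), were not analysed here. The rule for the 9 genes is a list of loci and uses no measured value, though the genes were chosen with earlier results of these data known.

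The lines were myb36-1 (a numeric line code in the sample titles), myb36-2 (line code GK543B11) and Col-0, the wild type, with 3 Affymetrix arrays of root RNA each. MYB36 encodes a transcription factor that switches on the genes for the Casparian strip, a lignin seal between endodermal cells. Plants of all lines were 2 weeks old and grew on upright plates (MGRL nutrient medium, 1.2% agar, 1% sucrose) at 22 °C with 16 h of light and 8 h of dark, after 2 days at 4 °C. Beyond these codes, the labels describe neither the lesion in each line nor how many plants or separate cultures stand behind an array, so p-values measure only the spread between these arrays, which may be technical.

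Class III peroxidases are secreted enzymes that use hydrogen peroxide to oxidise phenolic compounds and wall proteins, and they can also produce reactive oxygen species. In a root hair, the outgrowth of an epidermal cell, they act in the growing wall on extensins, structural glycoproteins that can be cross-linked by oxidation. NADPH oxidases supply the superoxide from which hydrogen peroxide is formed. In the endodermis other members of the same family polymerise the lignin of the Casparian strip. AT4G26010 is known to act with close relatives in root hair growth. The other 4 are class III peroxidase genes known from hair cells or the epidermis by their expression.

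The deposited values were log2 expression values from RMA, a method that corrects background, equalises arrays and summarises probes. The array medians were 4.58 to 4.61 in myb36-1 and 4.85 to 4.87 in myb36-2, against 4.59 to 4.62 in Col-0. Whether the higher myb36-2 medians come from the scale of those arrays or from their RNA cannot be told apart here, and each result was recomputed on a common scale, on which quantile normalisation gave the tested probe sets of all 9 arrays 1 shared distribution. Over all tested probe sets the median log2 change in myb36-2 was 0.16 as deposited and -0.01 on the common scale. Arrays correlated across probe sets with r of 0.990 to 0.994 within lines and 0.979 to 0.992 between lines. No probe set is named for MYB36, so the line labels could not be checked against its transcript. The 9 measured genes of a list for the endodermis and Casparian strip, not all of them known here as endodermal, were summed. They came to 1174 to 1279 linear units in myb36-1 and 1180 to 1326 in myb36-2, against 1973 to 2008 in Col-0.

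The first question was whether the hair peroxidases changed where MYB36 is mutated. In myb36-1, 0 of the 5 passed the test, with log2 changes from -0.07 to 0.27. In myb36-2, AT1G34510 was the 1 gene of the 5 that passed on the deposited values, and 0 passed on the common scale. In the mean of both mutants 0 passed on either scale, and 0 moved the same way past the threshold in each mutant. Calls had an adjusted p under 0.05 in limma, with Benjamini-Hochberg adjustment over 31325 probe sets. Of all tested probe sets, 0.495% were called in myb36-1 with deposited values and 0.472% on the common scale. For myb36-2 the share was 21.3% with deposited values, made up of 19.3% higher and 2.02% lower. The common scale gave 10.1% for myb36-2, with 4.66% called higher and 5.39% called lower. The mean of the mutants gave 5.32% and 3.2%, and calls shared by both mutants 0.418% and 0.415%. At an unadjusted p under 0.05 in limma, 0 of the 5 were past the threshold in myb36-1, against 11% of all probe sets with deposited values and 11.1% on the common scale. In myb36-2 there was 1 as deposited (AT1G34510), against 37% of all probe sets, and 1 on the common scale (AT1G30870), against 27.2%. The mean had 2 as deposited, against 23.9%, and 0 on the common scale, against 20.4%. The 2 mutants share the 3 Col-0 arrays.

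**Figure D1:**
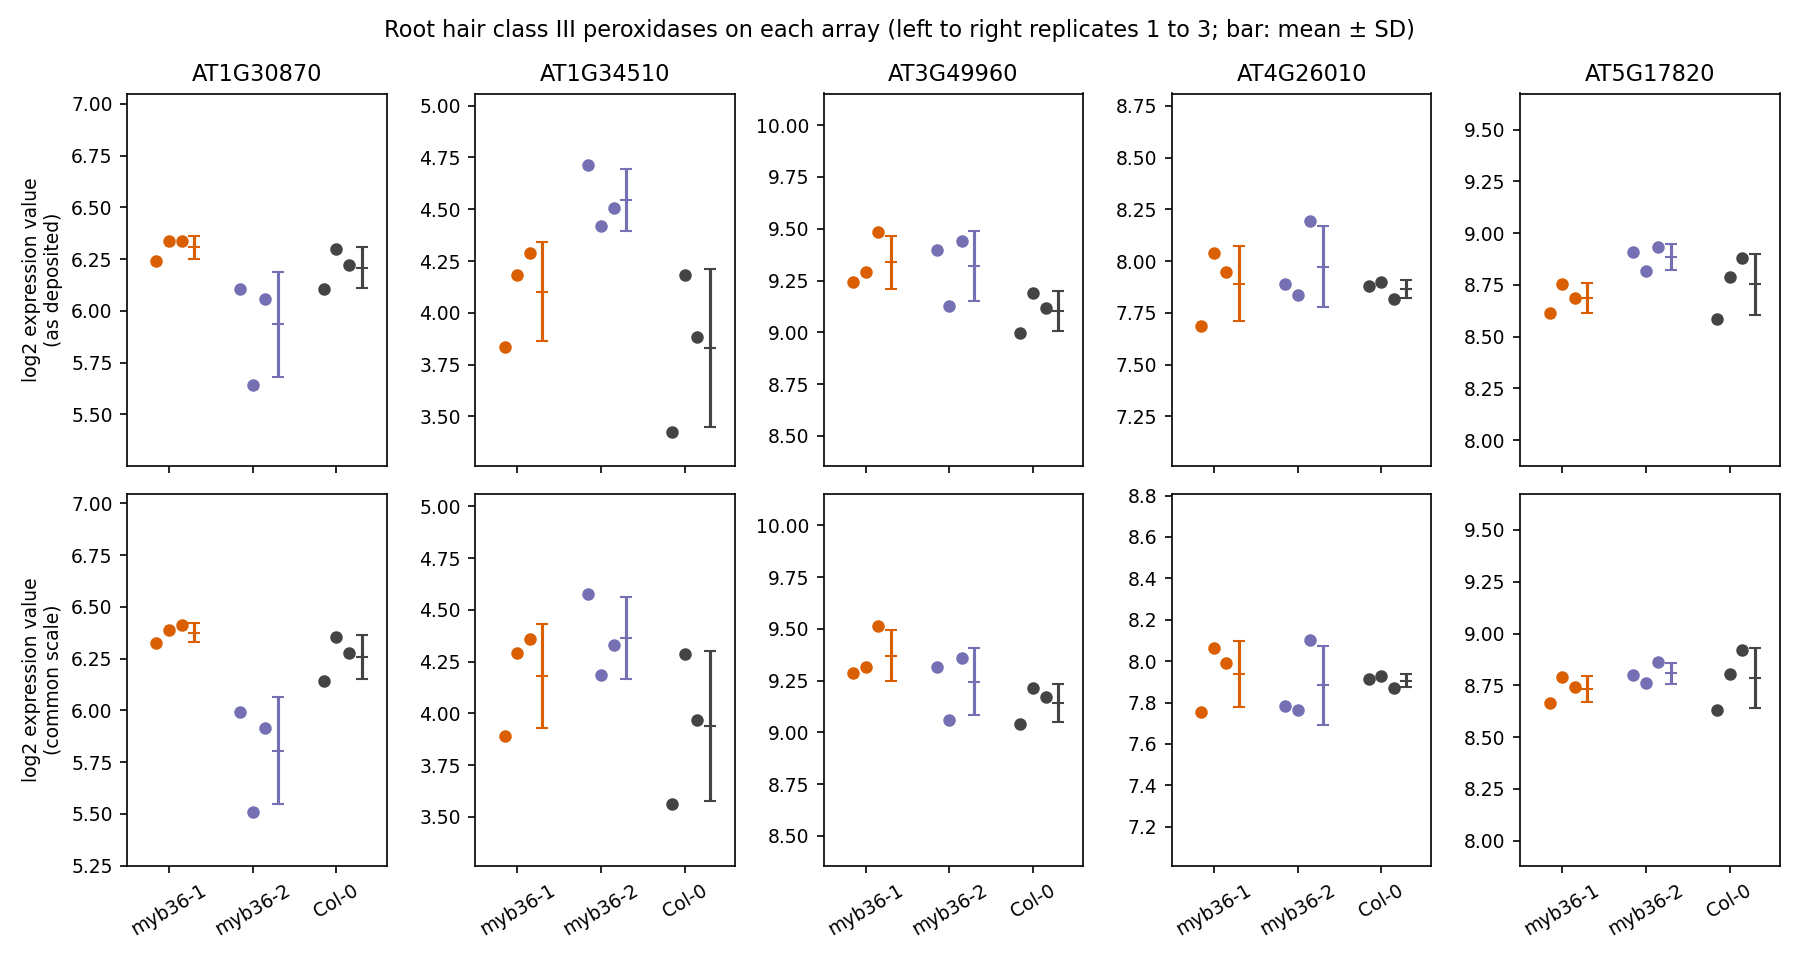
The log2 expression value of each of the 5 root hair peroxidases (columns) is plotted for every array of myb36-1, myb36-2 and Col-0, as deposited (upper row) and on the common scale (lower row), with the mean and SD of 3 arrays beside the points. Each panel spans 1.8 log2 units around its own mean, and for AT1G34510 the myb36-2 points lie above the Col-0 points in the upper row and overlap them in the lower row.

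AT4G26010, the gene with a known part in hair growth, had log2 values of 7.69, 8.04 and 7.95 in the myb36-1 arrays, 7.89, 7.84 and 8.20 in the myb36-2 arrays and 7.88, 7.90 and 7.81 in the Col-0 arrays. The 3 lines overlapped. The log2 change was 0.03 ± 0.12 (SE, n = 3 arrays per line) in myb36-1 with a 95% interval from -0.25 to 0.30, and 0.11 ± 0.12 in myb36-2 with an interval from -0.17 to 0.38. As a fold, the myb36-1 interval runs from 0.842 to 1.23 and the myb36-2 interval from 0.892 to 1.304. Adjusted p in limma was 0.96 for myb36-1 and 0.55 for myb36-2. The sign in myb36-2 turned on the common scale, where the change was -0.02.

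AT5G17820 had log2 values of 8.61, 8.76 and 8.69 in myb36-1, 8.91, 8.82 and 8.93 in myb36-2 and 8.59, 8.79 and 8.88 in Col-0. The myb36-1 arrays lay within the range of Col-0, and 2 of the 3 myb36-2 arrays lay above it. The change of -0.07 ± 0.09 in myb36-1 had a 95% interval from -0.28 to 0.15, and that of 0.13 ± 0.09 in myb36-2 one from -0.08 to 0.34. On the common scale the myb36-2 change was 0.02, and every myb36-2 array lay within the Col-0 range. The pooled spread within lines, an SD of 0.102, was the lowest of the 5 genes.

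AT3G49960 had log2 values of 9.24, 9.29 and 9.48 in myb36-1, 9.40, 9.13 and 9.44 in myb36-2 and 8.997, 9.19 and 9.12 in Col-0. All 3 myb36-1 arrays lay above all Col-0 arrays, while myb36-2 replicate 2 lay among them. The share of all tested probe sets whose arrays separate in this way was not counted, for this or the other genes. The change was 0.24 ± 0.11 in myb36-1 (adjusted p = 0.48 in limma, 95% interval -0.01 to 0.49) and 0.22 ± 0.11 in myb36-2 (adjusted p = 0.18, interval -0.03 to 0.47). The mean of both mutants was 0.23 ± 0.10 as deposited, with an unadjusted p of 0.040 and an adjusted p of 0.19 in limma, and 0.17 on the common scale. The difference between the mutants was 0.02 ± 0.11 as deposited and 0.13 ± 0.11 on the common scale. There the change was 0.23 in myb36-1 and 0.10 in myb36-2 (adjusted p = 0.57 in limma).

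AT1G34510 had log2 values of 3.83, 4.18 and 4.29 in myb36-1, 4.71, 4.42 and 4.51 in myb36-2 and 3.42, 4.18 and 3.89 in Col-0. Every myb36-2 array lay above every Col-0 array and above every myb36-1 array, and the myb36-1 arrays overlapped Col-0. The deposited medians of the myb36-2 arrays were higher too, and the share of all tested probe sets that separate so was not counted. AT1G34510 rose by 0.71 ± 0.19 in myb36-2 (adjusted p = 0.030 in limma), a 1.64-fold difference with a 95% interval from 1.22 to 2.22. On the common scale the change was 0.42 ± 0.20 (adjusted p = 0.20), and the myb36-2 values of 4.58, 4.18 and 4.33 overlapped the Col-0 values of 3.56, 4.29 and 3.97. In order of level, Col-0 (mean 3.83) was followed by myb36-1 (4.10) and myb36-2 (4.55), and neither step between neighbours passed the test. This was the dimmest of the 5, below the median of every array, with the widest pooled spread within lines (SD 0.275).

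As deposited, the AT1G34510 call was lost when any 1 of Col-0 replicate 1, Col-0 replicate 3 or the 3 myb36-2 arrays was left out, with adjusted p in limma from 0.053 to 0.084. The change itself stayed between 0.51 and 0.89 over all 9 omissions.

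AT1G30870 lay lower in myb36-2, without passing the test. It had log2 values of 6.24, 6.34 and 6.34 in myb36-1, 6.10, 5.64 and 6.06 in myb36-2 and 6.11, 6.30 and 6.22 in Col-0. All myb36-2 arrays lay below all Col-0 arrays as deposited, the closest by less than 0.01, and myb36-2 replicate 2 was the lowest. Separation of this kind was not counted over all probe sets. The change in myb36-2 was -0.27 ± 0.12 (adjusted p = 0.14 in limma) as deposited and -0.45 ± 0.13 (adjusted p = 0.053) on the common scale, where the values were 5.99, 5.51 and 5.91 in myb36-2 and 6.14, 6.36 and 6.28 in Col-0. It passed with each array's median subtracted (-0.49, adjusted p = 0.036) and with quantile normalisation over all deposited probe sets (-0.47, adjusted p = 0.048). Of the 9 omissions of 1 array on the common scale, it passed in 1, without myb36-2 replicate 1 (-0.55, adjusted p = 0.044), and the adjusted p reached 0.145 in the other 8. Without myb36-2 replicate 2 the change was -0.31 on the common scale and -0.13 as deposited, where 0 of the 9 omissions passed. In myb36-1 the change was 0.10 ± 0.12, with a 95% interval from -0.18 to 0.38.

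**Figure D2:**
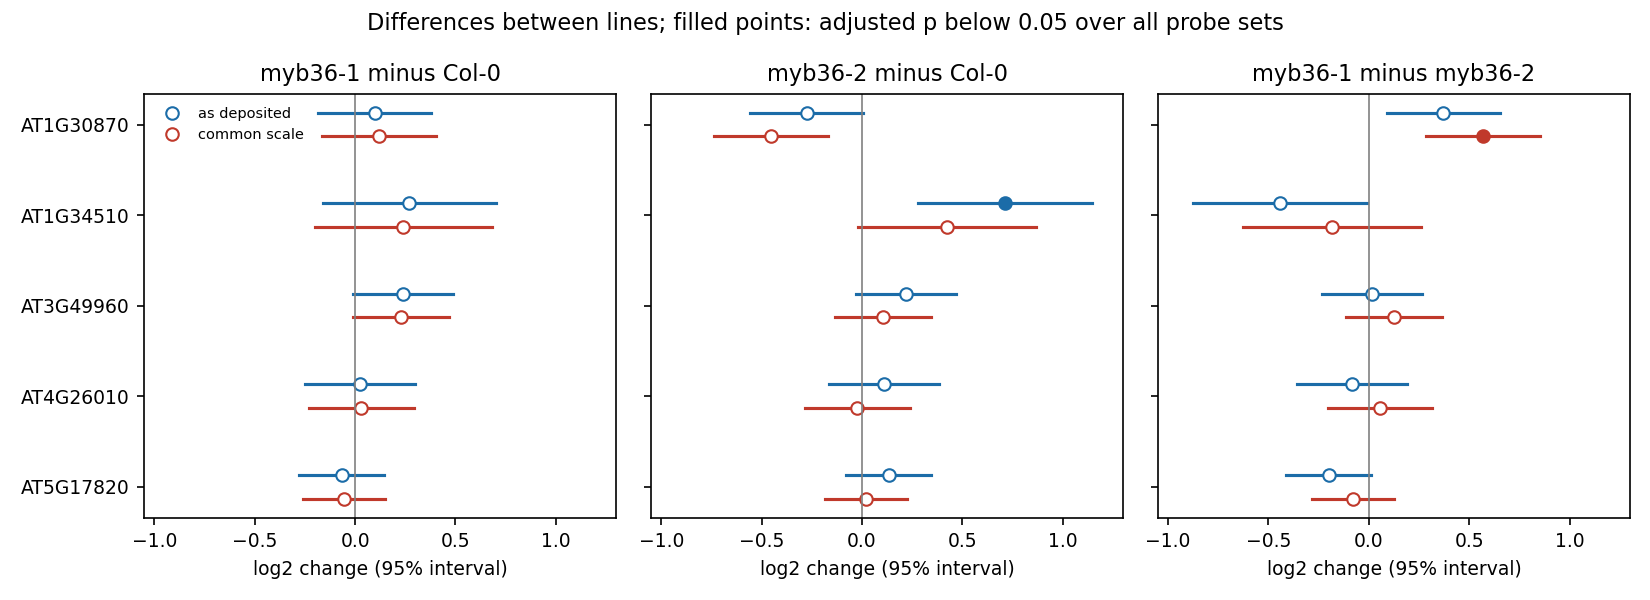
Log2 changes of the 5 genes are shown with 95% intervals for myb36-1 minus Col-0, myb36-2 minus Col-0 and myb36-1 minus myb36-2, in blue as deposited and in red on the common scale, with filled points where the adjusted p was under 0.05. Filled points are AT1G34510 in myb36-2 as deposited (0.71) and AT1G30870 between the mutants on the common scale (0.57).

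How large a change the arrays could call differed between the contrasts. With each gene's own error and the adjustment over all probe sets, a log2 change of at least 0.54 for AT5G17820 and 1.11 for AT1G34510 would have been called in myb36-1. In myb36-2 the same bounds were 0.30 and 0.61, since more probe sets were called there. For AT3G49960 they were 0.64 and 0.35, for AT4G26010 0.70 and 0.39, and for AT1G30870 0.72 and 0.40. These are sizes of a measured change on the deposited values, and they depend on how many probe sets pass in the contrast. A measured change in myb36-1 below them would not have been called, which leaves smaller true changes undecided. On the common scale the myb36-2 bounds were 0.33 for AT5G17820 and 0.72 for AT1G34510. An exact permutation test of 3 against 3 arrays cannot go below p = 0.10. In whole roots, fewer hair cells and less RNA per hair cell cannot be told apart.

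The mutants were also compared with each other. As deposited 0 of the 5 genes differed, with myb36-1 minus myb36-2 from -0.44 (AT1G34510) to 0.37 (AT1G30870), and 15.4% of all tested probe sets did. Both of these genes had an unadjusted p under 0.05 in limma, as did 33.2% of all probe sets. On the common scale myb36-1 exceeded myb36-2 in AT1G30870 by 0.57 ± 0.13 (adjusted p = 0.040 in limma), and 4.15% of all probe sets differed, 2.19% with myb36-1 higher. The values were 6.33, 6.39 and 6.41 in myb36-1 against 5.99, 5.51 and 5.91 in myb36-2. The groups did not overlap on either scale, and the share of all probe sets that separate so was not counted. The call was lost when any 1 array other than myb36-2 replicate 1 was left out, with adjusted p from 0.054 to 0.11 and a difference between 0.42 and 0.63. The other 4 genes had common scale differences from -0.18 to 0.13.

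Within lines, the 5 genes tended to be high or low on the same arrays. All 5 lay below their line mean on myb36-1 replicate 1, with a mean deviation of -0.14 log2 units, and on myb36-2 replicate 2, with -0.16. On Col-0 replicate 1, 4 of the 5 lay below, with -0.15, and AT4G26010 was the exception. All 5 lay above it on myb36-1 replicate 3 (0.08) and on Col-0 replicate 2 (0.12).

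Pearson correlations of the deviations from the line means over the 9 arrays were positive in all 10 pairs of the 5 genes, from 0.29 to 0.87 as deposited and from 0.30 to 0.85 on the common scale. The genes of a pair share the same arrays and normalisation, and the value is a description without a test. How often other sets of 5 genes agree in this way was not counted. Subtracting the line means also leaves fewer independent values than the 9 arrays. AT1G30870 and AT3G49960 were the closest pair (0.87), although their line means differed from Col-0 in opposite directions in myb36-2. The 7 other measured root hair genes were all below their line means on myb36-1 replicate 1 (mean -0.14) and all above on Col-0 replicate 2 (0.13). On myb36-2 replicate 2, where the peroxidases were lowest, 2 of those 7 lay above and their mean was -0.02. The median deviation over all tested probe sets was between -0.01 and 0.00 on every array.

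**Figure D3:**
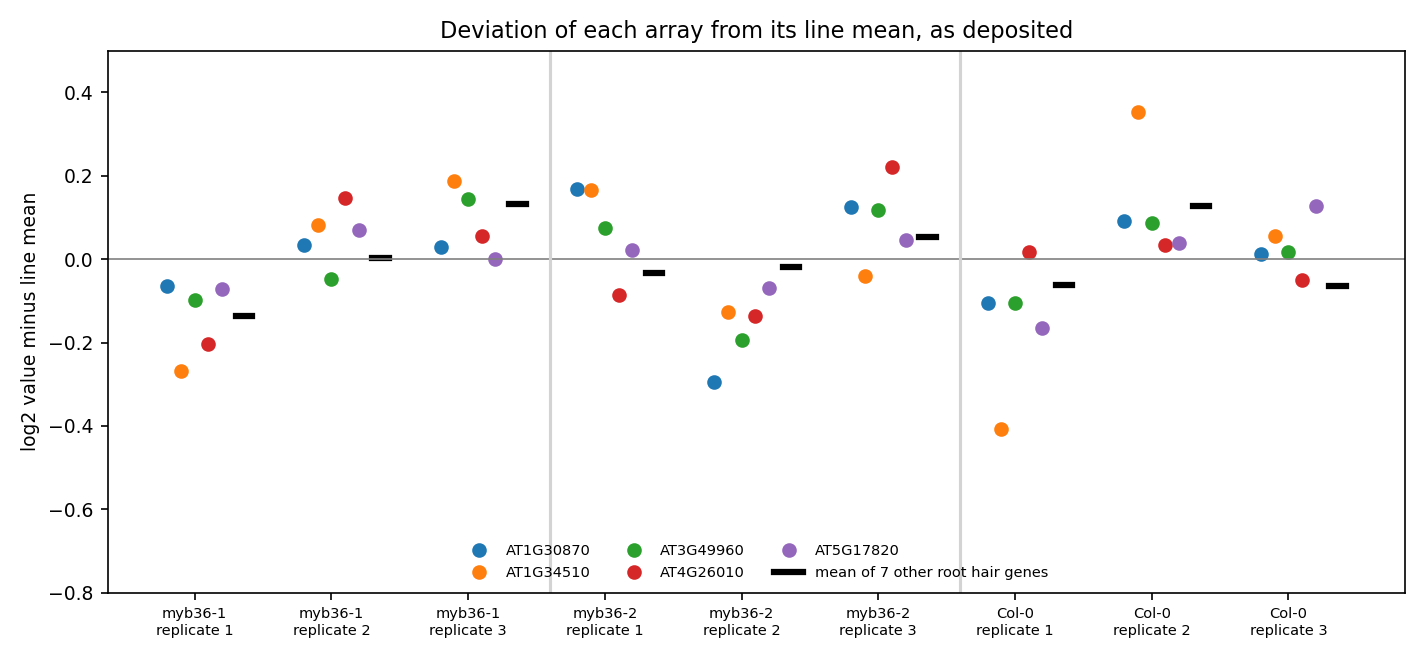
For each of the 9 arrays, coloured points give the log2 value of each root hair peroxidase minus the mean of its line, and the black bar gives the mean of the same quantity over 7 other root hair genes. All 5 points lie below 0 on myb36-1 replicate 1 and myb36-2 replicate 2, and all 5 lie above 0 on myb36-1 replicate 3 and Col-0 replicate 2.

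Genes whose profile over the 9 arrays was most like the mean profile of the 5 peroxidases were named by the Pearson correlation of log2 values, without a test, since arrays share lines and the deposited scale. The highest was AT1G34520 (r = 0.97 as deposited, 0.81 on the common scale), which directly follows AT1G34510 in gene order. AT5G57625 had r = 0.97 (0.98 on the common scale), GH9C1, an endoglucanase gene of root hairs, 0.94 (0.88), AT2G17240 0.93 (0.91) and AT5G07080 0.91 (0.85). For single members the closest gene was AT2G18876 for AT1G30870 (r = 0.98), AT1G63600 for AT1G34510 (0.97), AT5G07080 for AT3G49960 (0.96), AT2G05590 for AT4G26010 (0.93) and WRKY29 for AT5G17820 (0.96).

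AT1G34520 spanned 2.26 log2 units, more than any of the 5 peroxidases. Its values were 4.72, 5.61 and 5.73 in myb36-1, 5.90, 4.96 and 6.20 in myb36-2 and 3.94, 5.21 and 4.44 in Col-0. It was lowest, within each line, on the arrays on which the mean deviation of the peroxidases was lowest. Its change was 0.82 ± 0.41 in myb36-1 (adjusted p = 0.51 in limma) and 1.16 ± 0.41 in myb36-2 (adjusted p = 0.072), without passing. In myb36-2 its adjusted p fell to 0.048 with Col-0 replicate 2 left out, and to 0.040 with myb36-2 replicate 2 left out, where the change was 1.52. Of the 10 nearest measured genes on either side of the 5 peroxidases, 0 were called in myb36-1. As deposited, 1 had an unadjusted p under 0.05 in limma there, beside 11% of all tested probe sets. In myb36-2, 2 rose on the deposited values, on which 19.3% of all tested probe sets were called higher. On the common scale 0 rose and 1 fell, beside 4.66% and 5.39% of all tested probe sets.

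Other root hair genes were read in the same roots, as far as they were measured. Of 41 listed genes 7 were measured, and 0 were called in myb36-1. There 2 (AT4G08400 and SCN1) had an unadjusted p under 0.05 in limma, beside 11% of all tested probe sets as deposited. In myb36-1 their median change was 0.15 against 0.10 for the 5 peroxidases and -0.01 over all tested probe sets. In myb36-2, 2 rose on the deposited values, on which 19.3% of all tested probe sets were called higher. On the common scale 0 passed, and 3 had an unadjusted p under 0.05 in limma, beside 27.2% of all tested probe sets. Their medians on the 2 scales were 0.21 and 0.07, against 0.13 and 0.02 for the 5 peroxidases. Over all tested probe sets the medians were 0.16 and -0.01. The 2 that rose were the extensin-like genes AT4G08400 (0.64 ± 0.16, adjusted p = 0.023 in limma) and AT5G06630 (0.69 ± 0.14, adjusted p = 0.012). In the mean of both mutants AT4G08400 rose by 0.60 (adjusted p = 0.041), with 0.54 on the common scale (adjusted p = 0.074). In myb36-2 on the common scale AT4G08400 was at 0.51 and AT5G06630 at 0.47. The AT4G08400 call was also lost without Col-0 replicate 1, Col-0 replicate 3 or myb36-2 replicate 2. Extensin genes are repetitive and alike, and cross-hybridisation between them was not assessed.

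The other named root hair genes did not pass in either mutant. XTH26, a xyloglucan-modifying enzyme gene, was at 0.19 in myb36-1 and 0.25 in myb36-2. Leaving out 1 array at a time, XTH26 ranged from 0.0033 to 0.36 in myb36-1 and from 0.063 to 0.42 in myb36-2, lowest without Col-0 replicate 3 and highest without Col-0 replicate 1. GH9C1 was at 0.15 and 0.21, the expansin gene EXPA18 at 0.03 and 0.20, and SCN1, which encodes a RhoGDI that restricts where hairs emerge, at -0.24 and -0.12. SCN1 passed in myb36-2 with each array's median subtracted (-0.34, adjusted p = 0.026 in limma). Of 9 regulators of hair and non-hair fate only TRY, an inhibitory MYB-type gene of cell fate, was measured. TRY did not pass in myb36-1, at -0.33, but rose by 0.46 in myb36-2 on the deposited values (adjusted p = 0.013 in limma), with 0.22 on the common scale (adjusted p = 0.18). For TRY, myb36-1 minus myb36-2 came to -0.78 ± 0.10 as deposited (adjusted p = 0.0029) and -0.55 ± 0.10 on the common scale (adjusted p = 0.018).

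NADPH oxidase genes stand upstream of peroxidases in the use of oxygen at the wall, and 2 of 10 were measured. AT5G51060, listed both here and among the root hair genes, was not among the 2. AT4G25090 averaged 7.56 ± 0.04 in myb36-1 and 7.78 ± 0.16 in myb36-2, against 7.15 ± 0.18 in Col-0 (SD, n = 3 each). It rose by 0.63 ± 0.11 in myb36-2 (adjusted p = 0.0071 in limma) and by 0.50 there on the common scale (adjusted p = 0.026), and in the mean of both mutants by 0.52 (adjusted p = 0.023). In myb36-1 it was at 0.40 without passing (adjusted p = 0.23). AT4G11230 was at 0.30 in myb36-1, and in myb36-2 rose by 0.48 on the deposited values (adjusted p = 0.021), with 0.31 on the common scale (adjusted p = 0.12). Its call was also lost without Col-0 replicate 2, Col-0 replicate 3 or myb36-2 replicate 3.

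Within the peroxidase family, 59 other class III genes were measured of 64 listed besides the 9. In myb36-1, 5 of the 59 rose and 3 fell as deposited, with changes from -1.45 (AT1G44970) to 2.85 (PRX52). On the common scale 5 rose and 2 fell. Of all tested probe sets, 0.495% as deposited and 0.472% on the common scale were called in either direction. In myb36-2, 20 rose and 5 fell on the deposited values, on which 19.3% of all probe sets were called higher and 2.02% lower. On the common scale 8 rose and 8 fell, beside 4.66% and 5.39% of all probe sets. Their median change was -0.00 in myb36-1 and 0.12 in myb36-2, against 0.10 and 0.13 for the 5 root hair genes. Over all tested probe sets the medians were -0.01 and 0.16. The root hair genes ran from -0.07 to 0.27 in myb36-1 and from -0.27 to 0.71 in myb36-2, inside the range of the rest of the family in both mutants. Whether hair and other peroxidases differ as groups was not tested.

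**Figure D4:**
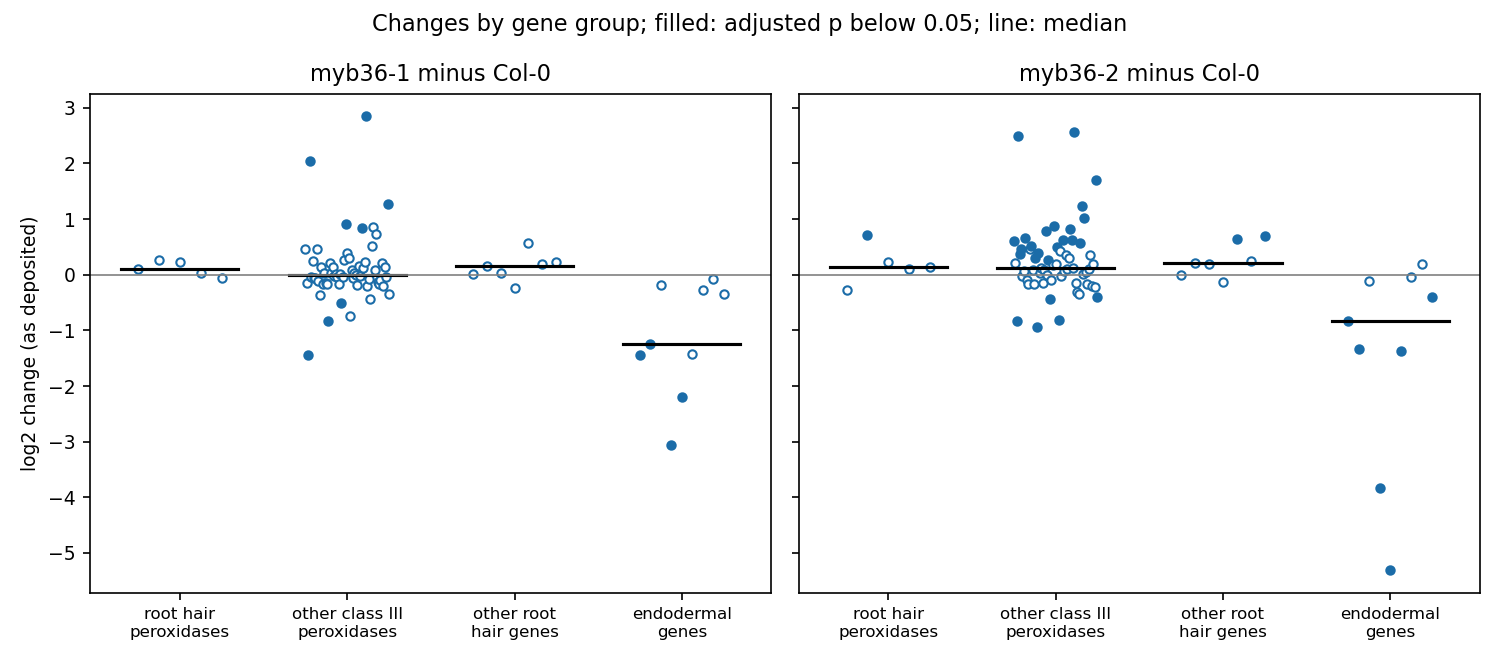
Log2 changes as deposited are plotted for myb36-1 (left) and myb36-2 (right), with filled points for an adjusted p under 0.05 and a line at the median. The groups are the 5 root hair peroxidases, 59 other class III peroxidases and 7 other root hair genes. The last group, marked endodermal, is the 9 genes listed for the endodermis and Casparian strip. It overlaps the other class III peroxidases, and AT1G44970 is plotted in both. The root hair peroxidases lie within 0.8 log2 units of 0, whereas 4 genes of the last group in myb36-1 and 6 in myb36-2 are filled below 0.

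Genes listed for the endodermis and Casparian strip and for leaves were read beside these values. Of the 9 measured genes of the first list, 4 fell in myb36-1 and 6 in myb36-2 on both scales, and 0 rose. Of all tested probe sets, 0.495% as deposited and 0.472% on the common scale were called in myb36-1 in either direction. Called lower in myb36-2 were 2.02% and 5.39%. In the mean of both mutants as deposited, AT3G55230 was at -3.75, AT2G39430 at -3.45 and AT4G13580 at -1.40. The same contrast gave -1.29 for AT1G61590, -1.14 for AT1G44970 and -0.38 for AT5G66390, which did not pass there. GSO1, AT2G16385 and AT4G34600 did not pass in either mutant. AT1G44970 is also among the 59 other class III peroxidases, so its fall is counted in both lists. Of 16 listed leaf and photosynthesis genes 3 were measured. They summed to 333.5 to 370.1 linear units in myb36-1 and 355.3 to 387 in myb36-2, against 416.9 to 557.7 in Col-0. In myb36-1, 0 of the 3 passed, and in myb36-2, 2 fell on both scales. As deposited, 1 had an unadjusted p under 0.05 in limma in myb36-1, beside 11% of all tested probe sets. The 5 root hair peroxidases summed to 1293 to 1474 in myb36-1 and 1309 to 1565 in myb36-2, against 1211 to 1362 in Col-0, so the 3 lines overlapped. The part of leaf RNA in the AT1G34510 and AT1G30870 results was not tested.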

How the data were processed

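Each of the 9 arrays has 38408 probe sets, for which the authors deposited log2 expression values. The submitters' processing notes name RMA. Its version, and which arrays were normalised in 1 run, are not stated. Platform annotation gave 16722 probe sets exactly 1 gene and 759 several. Of the first kind, 16574 were found by ID in the RefSeq gene table (TAIR10.1), used for names and for which genes adjoin. Left out as control-like were 7083 probe sets with identifiers below any that is paired with a gene.

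limma 3.58.1 in R 4.3.3 was fitted to the remaining 31325, with a mean for every line, all 9 arrays and moderated, two-sided tests, and was tested on simulated data. The number of arrays limits the precision. Replicate numbers were not used as pairs in the main fit. Deviations of same-numbered arrays correlated from -0.19 to 0.08, and those of other arrays from -0.17 to 0.17. The labels do not say whether same-numbered samples were handled together, and these values cannot decide it.

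The members and lists were chosen with earlier results of these data known. Named were all measured members and up to 6 genes of each other list by the size of the mean change in both mutants. The genes most like the members were also named, among those with a mean log2 level of at least 5. GSO1, AT2G16385 and AT4G34600 were named outside this rule, as genes of the endodermal list that passed in neither mutant. The genes adjoining the members, quantile normalisation over all deposited probe sets, and the omissions and block on the common scale were added after the data were seen. Alternatives covered scaling, dim and control-like probe sets, moderation, weights, the arrays fitted, the replicate block, probe sets per gene, the threshold and the omission of each array.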

Additional observations from a re-analysis of the deposited data

Results flagged for a closer look

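AT1G30870 differed between the mutants on the common scale and did not pass with deposited values. On the common scale, myb36-1 minus myb36-2 was 0.57 ± 0.13 (SE, n = 3 arrays per line, adjusted p = 0.040 in limma). All 3 myb36-1 arrays lay above all 3 myb36-2 arrays, a separation that was not counted over all probe sets. The deposited values gave 0.37 ± 0.12 (adjusted p = 0.073). On the common scale the difference passed in 1 of the 9 omissions of 1 array.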

How the results depend on the processing

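With deposited values, the number of root hair peroxidases called stayed at 0 in myb36-1, in the mean of both mutants and in both mutants together under every alternative run. In myb36-2 the count of 1 (AT1G34510) became 0 under quantile normalisation over all 9 arrays, a mean log2 level of at least 5 (which removes that gene), no moderation, or an adjusted p below 0.01. Leaving out each array gave 0 to 1. The count was also 1 with medians subtracted and with quantile normalisation over all deposited probe sets, but the gene called there was AT1G30870, which fell, while AT1G34510 lost its call (0.50, adjusted p = 0.118, and 0.44, adjusted p = 0.192, in limma). Between the mutants the count of 0 became 1 under quantile normalisation over the 9 arrays or over all deposited probe sets, and with array medians subtracted. The replicate block left the counts at 1 in myb36-2 and 0 elsewhere, while the common scale difference of AT1G30870 between the mutants then had an adjusted p of 0.076 in limma. The cause of these changes was not tested.

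Of 211 values of single members over 11 kinds of setting, 190 kept sign and side of the threshold, 4 lost a call, 5 gained one and 12 turned sign. Of 258 for the other named genes the counts were 239, 15, 1 and 3. Signs turned on small changes. AT4G26010 in myb36-2 was -0.023 with quantile normalisation over the 9 arrays, -0.024 over all deposited probe sets and -0.11 with medians subtracted, which also gave -0.031 in the mean. Its myb36-1 minus myb36-2 was 0.0548 with quantile normalisation over the 9 arrays, 0.0551 over all deposited probe sets and 0.16 with medians subtracted. AT5G17820 in the mean was -0.017, -0.021 and -0.065 under the same 3 settings, and medians subtracted also gave -0.085 in myb36-2 and 0.041 for myb36-1 minus myb36-2. In myb36-2, medians subtracted gave -0.021 for EXPA18 and -0.0078 for GH9C1, and quantile normalisation over all deposited probe sets -0.016 for XTH26.

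Leaving out each array moved AT3G49960 between the mutants from -0.080 to 0.076. AT4G26010 ranged from -0.047 to 0.13 in myb36-1, from -0.0021 to 0.18 in myb36-2 and from -0.16 to 0.028 between the mutants. AT5G17820 in the mean ranged from -0.048 to 0.097, and EXPA18 in myb36-1 from -0.090 to 0.13. GH9C1 in myb36-1 kept its sign, from 0.072 to 0.20. The deposited table gives no detection call, so whether AT1G34510, with a mean level of 4.16, lies above background could not be read.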
